A study of Homo sapiens with 24 samples.

Results

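Inflammatory cytokines and chemokines were followed here as a group of 10 genes: CXCL1, CXCL2, CXCL3, CXCL8, CCL20, IL6, IL1A, IL1B, LIF and CSF2. They were chosen by gene symbol, each matched 1 row of the deposited tables, and together they are 10 of the 37416 genes listed. RNA was sequenced from cultured human breast cancer cells of 4 established lines: HCC1806, BT549, MDAMB468 and MDAMB231. Each line carried a lentiviral short hairpin RNA, either against ADAR1 (shADAR1) or the control hairpin (shNT), with 3 biological replicates per arm and 24 libraries in all. Cells of both arms were infected for 24 h and then selected with 2 µg/ml puromycin for 72 h, so the controls carry a virus and a drug selection too. The sequence and number of the hairpins are not given in the sources used here, and nothing beyond the word biological says how the replicates were separated. The p-values below therefore measure the spread between these libraries.

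CXCL1, CXCL2, CXCL3 and CXCL8 are small chemokines that attract neutrophils through the receptors CXCR1 and CXCR2. CCL20 attracts lymphocytes and dendritic cells through CCR6. IL1A and IL1B are the IL-1 ligands, IL6 and LIF signal through receptors that share the subunit gp130, encoded by IL6ST, and CSF2 encodes the growth factor GM-CSF. As background, many of these genes are induced by the transcription factors NF-kB and AP-1, and their messengers are often short-lived. In tumours they are known for drawing in and activating immune and stromal cells. ADAR encodes ADAR1, an enzyme that edits adenosine to inosine in double-stranded RNA and so keeps a cell's own RNA from being read as viral.

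ADAR itself was lower in each of the 3 shADAR1 libraries than in each shNT library of its line, with a log2 fold change between -1.43 and -2.19 (edgeR adjusted p at most 3.2e-05). Total counts ranged from 10370645 to 97218217 per library. Of the 8 epithelial markers checked, EPCAM, KRT19, KRT14 and KRT17 were at 0 in all shNT libraries of BT549, and the summed level of the 8 was 0.724 to 2.16 CPM (counts scaled to library size) in that line. The same sum was 936 to 1162 CPM in MDAMB231 and 4093 to 6006 CPM in HCC1806 and MDAMB468. In MDAMB231 shNT it came mostly from KRT8, KRT18 and KRT19 (means 467, 223 and 282 CPM). EPCAM averaged 8.95 CPM there, and CDH1, KRT5, KRT14 and KRT17 at most 0.737. The 4 mesenchymal markers VIM, FN1, ZEB1 and CDH2 summed to 4191 to 5767 CPM in BT549 and 4606 to 6041 in MDAMB231. Their sum was 48.9 to 341 CPM in HCC1806 and MDAMB468. CDH2 alone was low in MDAMB231 shNT (0.254 CPM). The 8 leukocyte markers together stayed between 2.41 and 15.3 CPM, and their part in the results below was not tested. In bulk RNA, fewer cells that make a transcript and less of it per cell cannot be told apart.

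CXCL1 (chr4:73869393-73871242, plus strand), CXCL2 (chr4:74097035-74099293, minus strand), CXCL3 (chr4:74036589-74038807, minus strand) and CXCL8 (chr4:73740506-73743716, plus strand) lie in 1 cluster on chromosome 4. IL1A (chr2:112773915-112784590) and IL1B (chr2:112829751-112836903) are neighbours on the minus strand of chromosome 2. CCL20 lies at chr2:227813842-227817564 and IL6 at chr7:22725884-22732002, both on the plus strand, LIF at chr22:30240447-30246851 on the minus strand and CSF2 at chr5:132073790-132076170 on the plus strand. These are the deposited intervals. The build is not given in the sources used here, and 9 of the 10 intervals, all but that of CCL20, have the same start and end in GENCODE 29 on GRCh38. The deposited intervals of IL6, CXCL2, CXCL3, CXCL8, IL1A and IL1B begin upstream of the start site that RefSeq gives. The promoter windows of IL6 and CXCL3 below therefore lie inside them. That of CXCL2 lies mostly inside, with its motif, and that of CXCL8 overlaps its interval only at the end.

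Promoters of 9 members were found in RefSeq's table for GRCh38.p14, and LIF was not among them. In 5 of them the 300 bases around the start site held GGANTTTCC, a form of the NF-kB motif chosen after the promoters had been seen, read on both strands. Of 35116 promoters of the same length, 1.643% held it. The 5 stretches are shown because they are the sequence feature that the 4 CXC chemokines and IL6 share. Each is written 5′ to 3′ on the gene's own strand, with the motif in capitals and 30 bases on either side.
CXCL1, chr4:73869285-73869353, plus strand: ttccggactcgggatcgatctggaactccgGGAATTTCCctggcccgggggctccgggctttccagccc
CXCL2, chr4:74099234-74099302, minus strand: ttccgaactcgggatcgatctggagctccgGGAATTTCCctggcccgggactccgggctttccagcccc
CXCL3, chr4:74038729-74038797, minus strand: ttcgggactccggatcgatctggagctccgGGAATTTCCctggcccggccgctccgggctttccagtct
CXCL8, chr4:73740448-73740516, plus strand: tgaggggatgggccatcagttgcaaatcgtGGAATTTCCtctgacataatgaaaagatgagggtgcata
IL6, chr7:22727098-22727166, plus strand: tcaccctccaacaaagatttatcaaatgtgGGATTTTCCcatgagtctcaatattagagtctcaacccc
The match began 78 bases before the start site in CXCL1 and CXCL3, 77 in CXCL2, 91 in CXCL8 and 72 in IL6. The AP-1 motif TGANTCA, also read on both strands and held by 7.709% of all promoters, was found in CXCL8 and IL1A. A match of letters describes the window and is not a measured binding site. CXCL1, CXCL2 and CXCL3 are close copies in their transcripts as well. Of all stretches of 50 bases, 4.81% in CXCL1, 12.5% in CXCL2 and 6.01% in CXCL3 also occurred in another gene, and none did in the other 7 members. How the counting treated such shared reads is not given in the sources used here, so a small part of these 3 genes' counts may be exchanged among them.

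The lines differed widely in which of the genes they expressed in the shNT arm. HCC1806 had the highest mean level of 7 members, the 5 chemokines and both IL-1 genes. MDAMB231 was highest for IL6 and CSF2, MDAMB468 for LIF, and BT549 for none. On the RPKM scale, which divides CPM by the deposited gene length and so allows genes to be compared, CXCL1 led in HCC1806 (37.6 ± 18.9, SD, n = 3), followed by IL1A (33.1 ± 8.41) and CXCL8 (26.8 ± 7.79). In BT549 CXCL1 stood at 27.0 ± 2.90 RPKM and the next gene, CXCL2, at 2.46 ± 0.0992. In MDAMB231 and MDAMB468 LIF was the leading member, at 24.5 ± 3.19 and 28.7 ± 24.8 RPKM, followed by CSF2 in MDAMB231 (7.70 ± 7.34) and CXCL2 in MDAMB468 (3.20 ± 2.47). The deposited length of CXCL3 is 1 block of 2219 bases with its introns, which lowers that gene's RPKM relative to the others.

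Among the CXC chemokines, CXCL1 had 57.3, 67.8 and 21.1 CPM in shNT replicates 1, 2 and 3 of HCC1806, and 32.1, 39.2 and 33.8 CPM in BT549. The values of these lines overlap, and the difference of their means did not pass the test (edgeR adjusted p = 0.38). MDAMB231 had 3.97, 0.601 and 2.10 CPM, all below the BT549 libraries, and the log2 difference was 4.25 ± 0.58 (SE, edgeR adjusted p = 1.3e-06). MDAMB468 was lowest, with 0, 12 and 10 counts, or 0, 0.249 and 0.177 CPM, and was lower than MDAMB231 (log2 difference 3.45 ± 0.88, edgeR adjusted p = 0.0016). CXCL1 was thus high in 2 of the lines and close to 0 in MDAMB468.

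CXCL8, the gene of interleukin-8, separated HCC1806 from the other lines. Its level there was 72.5, 69.5 and 40.4 CPM, against 11.3, 1.91 and 6.92 in MDAMB231. BT549 had 2.29, 3.13 and 3.89 CPM and MDAMB468 1.59, 0.829 and 2.55. HCC1806 exceeded MDAMB231 by a log2 difference of 3.30 ± 0.48 (edgeR adjusted p = 2.5e-06), while the steps from MDAMB231 to BT549 (adjusted p = 0.082) and from BT549 to MDAMB468 (adjusted p = 0.14) did not pass. Without MDAMB231 shNT replicate 2, the lowest library of its group, the fitted log2 difference from MDAMB231 to BT549 was 1.499, with an edgeR adjusted p of 0.0051. CXCL3 ran from 9.67, 9.47 and 6.68 CPM in HCC1806 to 0.0758, 0.166 and 0.141 in MDAMB468. BT549 (2.20, 2.88 and 1.37) and MDAMB231 (1.85, 0.223 and 1.90) lay between and did not differ from each other beyond their spread (edgeR adjusted p = 0.19, and 0.0497 without MDAMB231 replicate 3).

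CXCL2 was the most evenly expressed of the 4. It had 16.5, 10.7 and 9.31 CPM in HCC1806 shNT, 10.5, 1.402 and 3.23 in MDAMB231, 9.05, 2.24 and 3.09 in MDAMB468 and 3.51, 3.79 and 3.75 in BT549. No step between neighbours in that order passed the test (edgeR adjusted p = 0.058, 0.96 and 0.66). The first library of MDAMB231 and of MDAMB468 stood well above the other two, and without it the step from HCC1806 to each line passed, at a log2 difference of -2.38 for MDAMB231 (edgeR adjusted p = 0.0039) and -2.15 for MDAMB468 (0.0091). HCC1806 against BT549 passed, but not without BT549 replicate 1 (edgeR adjusted p = 0.0501) or HCC1806 replicate 1 (0.065).

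CCL20 was low everywhere. HCC1806 had 1.14, 1.71 and 0.830 CPM, and MDAMB231 followed with a mean of 0.195 ± 0.0231 (SD, n = 3), lower by a log2 difference of 2.63 ± 0.76 (edgeR adjusted p = 0.0049). MDAMB468 averaged 0.180 ± 0.117 CPM, not separable from MDAMB231 (adjusted p = 0.82). In BT549 the 3 libraries held 0, 2 and 0 counts of CCL20. Against those 2 counts the level in HCC1806 was 101 times as high, with a 95% counting interval from 27.5 to 843.

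The IL-1 genes followed the same order at the top. IL1A had 82.2, 78.9 and 49.7 CPM in HCC1806 and 3.32, 2.09 and 2.48 in MDAMB231, a log2 difference of 4.81 ± 0.36 (edgeR adjusted p = 5.6e-11). BT549 (0.755 ± 0.354 CPM) was lower again, by 1.77 ± 0.40 (adjusted p = 0.00055), and did not differ from MDAMB468 (0.578 ± 0.206 CPM) beyond the spread (adjusted p = 0.46). IL1B had 27.4, 17.7 and 24.3 CPM in HCC1806, 3.69, 2.65 and 4.29 in MDAMB231, 0.985, 1.16 and 0.601 in MDAMB468 and 0.160, 0.277 and 0.349 in BT549. Here the 4 lines did not overlap and each of the 3 steps passed the test, with log2 differences of 2.71, 1.96 and 1.80 (edgeR adjusted p = 5.2e-08, 1.8e-05 and 0.00041).

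IL6 and LIF, the gp130 cytokines, ran the other way. LIF had 224, 35.2 and 82.6 CPM in MDAMB468 and 107, 82.9 and 102 in MDAMB231, against 6.65, 7.41 and 13.9 in BT549 and 12.01, 7.55 and 5.77 in HCC1806. All libraries of the first pair of lines were above all of the second. The log2 step from MDAMB231 to BT549 was 3.39 ± 0.58 (edgeR adjusted p = 2.7e-05), and those within each pair did not pass (adjusted p = 0.74 and 0.82). IL6 had 7.38, 2.31 and 4.27 CPM in MDAMB231, 6.29, 0.207 and 1.15 in MDAMB468, 0.728, 0.986 and 1.26 in BT549 and 0.176, 0.166 and 0.116 in HCC1806. HCC1806, the line with most of the chemokines, was thus lowest for IL6, by 2.71 ± 0.99 below BT549 (edgeR adjusted p = 0.02, which became 0.052 without HCC1806 replicate 2 and 0.071 without replicate 3). MDAMB231 exceeded BT549 in IL6, but not without BT549 replicate 1 (edgeR adjusted p = 0.07), BT549 replicate 2 (0.052) or MDAMB231 replicate 1 (0.08). The place of MDAMB468 rested on replicate 1. Without that library its fitted level was below that of BT549 (log2 difference -0.53) and below that of MDAMB231 (-2.72, edgeR adjusted p = 0.0035), and without replicate 2 it was above BT549 (1.88, edgeR adjusted p = 0.024).

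CSF2 was present in only part of the lines. MDAMB231 had 12.4, 1.02 and 4.80 CPM and HCC1806 2.73, 3.56 and 1.22, ranges that overlap (edgeR adjusted p = 0.17, and 0.038 without MDAMB231 replicate 2). No read of CSF2 was counted in the shNT libraries of BT549, and MDAMB468 had 0, 0 and 4 counts. With 3 counts over the BT549 group as the floor, CSF2 was at least 132-fold higher in HCC1806 and at least 215-fold higher in MDAMB231. Over all pairs of lines, 8 of the 10 members differed between HCC1806 and BT549, where 63.5% of all genes tested did, and 7 between MDAMB231 and BT549, where 56.5% did. Further counts were 5 for MDAMB468 against BT549 (61% of all genes), 8 for MDAMB231 against HCC1806 (59%), 9 for MDAMB468 against HCC1806 (62.9%) and 6 for MDAMB468 against MDAMB231 (61.8%). Most genes differed between these lines, and the members' counts, 5 to 9 of 10, lay on both sides of that background.

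**Figure D1:**
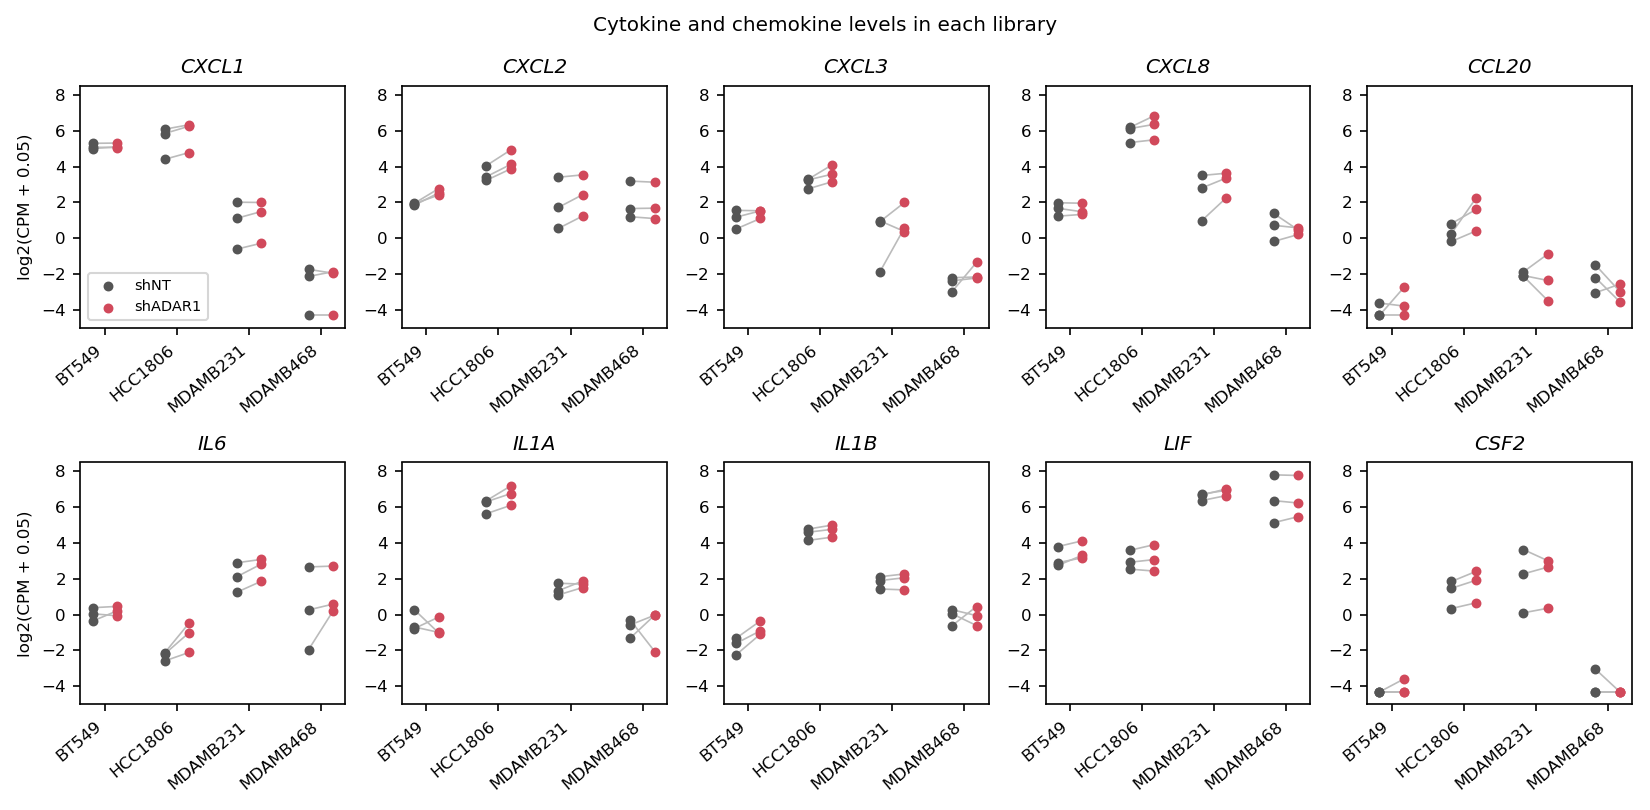
Level of each of the 10 genes in each library, as log2 of CPM plus 0.05 (vertical axis, the same in every panel), for 4 lines with 3 shNT libraries (grey) and 3 shADAR1 libraries (red); thin lines join libraries of the same replicate number. CXCL8, IL1A and IL1B are highest in HCC1806 and LIF in MDAMB231 and MDAMB468, and in many groups the joined libraries run parallel while the replicates stand far apart.

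Replicates of 1 group stood far apart for many of these genes, and for part of them the arms shared the pattern. In MDAMB468, LIF had 224, 35.2 and 82.6 CPM in shNT and 219, 44.4 and 75.4 in shADAR1, so that replicate 1 was highest and replicate 2 lowest in both arms. In MDAMB231, CSF2 had 12.4, 1.02 and 4.80 CPM in shNT and 8.001, 1.23 and 6.26 in shADAR1, again with replicate 2 lowest in both. CXCL1 in HCC1806 had 57.3, 67.8 and 21.1 CPM in shNT and 76.2, 80.6 and 27.4 in shADAR1, with replicate 3 lowest in both. Other members did not share it. IL1A in MDAMB468 had 0.758, 0.622 and 0.354 CPM in shNT and 0.189, 0.929 and 0.933 in shADAR1, and IL1B there had 0.985, 1.16 and 0.601 against 0.605, 0.912 and 1.32, so that replicate 3 was lowest in shNT and highest in shADAR1 for both. The highest library of a group was on median 3.18 times the lowest in MDAMB231 and 3.74 times in MDAMB468, against 1.71 in BT549 and 2.08 in HCC1806, over the members and arms without a library at 0. The largest such ratio was 30.3, for IL6 in shNT of MDAMB468.

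The biological coefficient of variation, edgeR's estimate of the replicate spread relative to the level, had a median of 0.466 over the 10 members and of 0.185 over all genes tested. When each replicate number of a line was given its own term, so that shADAR1 was compared with shNT within a number, these medians were 0.126 and 0.0954. CXCL1 went from 0.489 to 0.0598, LIF from 0.442 to 0.0688 and CXCL2 from 0.513 to 0.0847. CCL20 went from 0.564 to 0.378 and CXCL3 from 0.417 to 0.255, the highest values of the 10 within numbers. Same-numbered libraries deviated together across all genes in BT549, HCC1806 and MDAMB231, and the values within a number are therefore given beside the unpaired ones for those lines. The mean of the lines and the joint test within numbers pair MDAMB468 by its numbers as well.

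**Figure D2:**
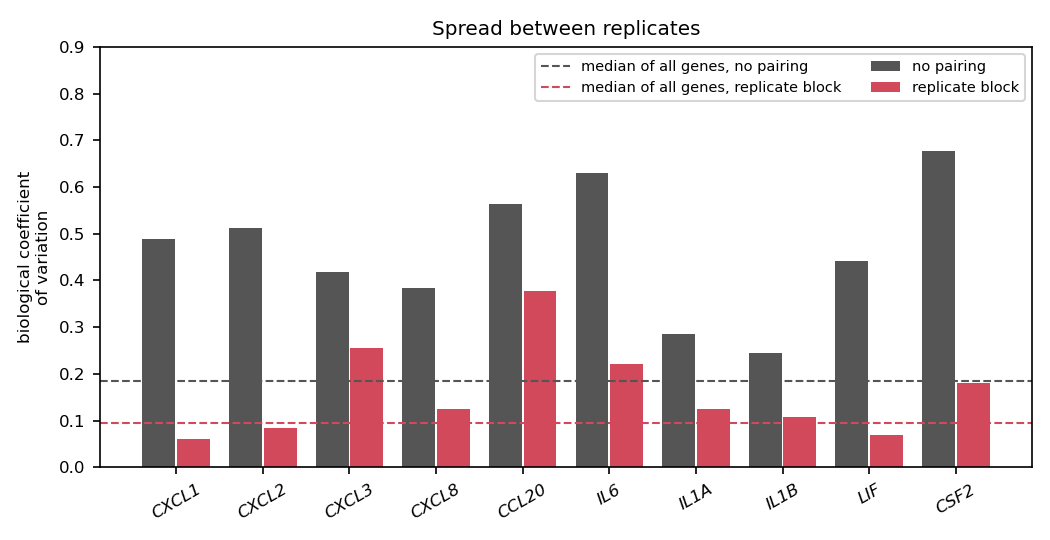
Biological coefficient of variation of the 10 genes (vertical axis, no unit) without pairing (grey bars) and with a term for each replicate number within each line (red bars), and the medians over all genes tested (dashed lines). Without pairing the 10 genes lie between 0.244 for IL1B and 0.677 for CSF2, all above the median of all genes.

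Differences between shADAR1 and shNT were small beside that spread, which the fit estimates per gene over all 24 libraries together and not line by line. In the comparison without pairing, none of the 10 passed the threshold in any line by edgeR, and few genes of any kind did: 0.473% of all genes tested in BT549, 0.0468% in HCC1806, 2.01% for MDAMB231 and 0.0375% for MDAMB468. None passed by DESeq2 either. At an unadjusted p under 0.05 by edgeR there was 1 member in BT549 (IL1B), 1 in HCC1806 (IL1A) and none in MDAMB231 and MDAMB468. Of the 21352 genes tested, 1370, 929, 2501 and 803 had such a p in these lines, in that order, and 2741 in the mean. None passed in the mean of the 4 line effects, where 2.96% of all genes did and IL1B alone had an unadjusted p under 0.05, nor in the joint test of differences between the lines (0.0234% of all genes). The median log2 fold change of the members was 0.21 in BT549 (8 members with a fold), 0.52 in HCC1806 (10), 0.35 in MDAMB231 (10) and 0.07 in MDAMB468 (9), beside medians of all genes between 0.00 and 0.01. Of these fitted changes 6 of 8, 10 of 10, 9 of 10 and 5 of 9 were above 0. No fold is given for genes at or near 0 in both arms: CSF2 in BT549 (0, 0 and 2 counts in shADAR1) and MDAMB468 (0, 0 and 0 in shADAR1), and CCL20 in BT549 (0, 2 and 6 in shADAR1).

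Within replicate numbers, several members were higher in shADAR1 and none passed as lower. In BT549 2 of 10 rose, CXCL2 and LIF, where 2.48% of all genes rose and 5.14% changed. In HCC1806 3 rose, CXCL1, CXCL2 and IL1A (1.47% of all genes rose and 2.1% changed). In MDAMB231 3 rose, CXCL2, CXCL8 and LIF (5.08% and 11.4%). In the mean of the lines CXCL2, IL1B, IL6 and LIF rose (7.25% and 13.2%). Members that were higher in shADAR1 in each of the 3 numbers were 9 of 10 in HCC1806, all but LIF, where 19.4% of all genes were. There were 3 such members in BT549 (21.2%), 4 in MDAMB231 (19.8%) and 2 in MDAMB468 (18.1%). No member was lower in all 3 numbers of any line. The share of all genes that were lower in all 3 ran from 12.8% (MDAMB468) over 15.3% (BT549) and 17.3% (HCC1806) to 18.4% (MDAMB231). The arms did not overlap for CXCL2 and IL1B in BT549 (14.7% of all genes), for IL6 in HCC1806 (7.58%), and for no member in MDAMB231 (14.2%) or MDAMB468 (11%).

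**Figure D3:**
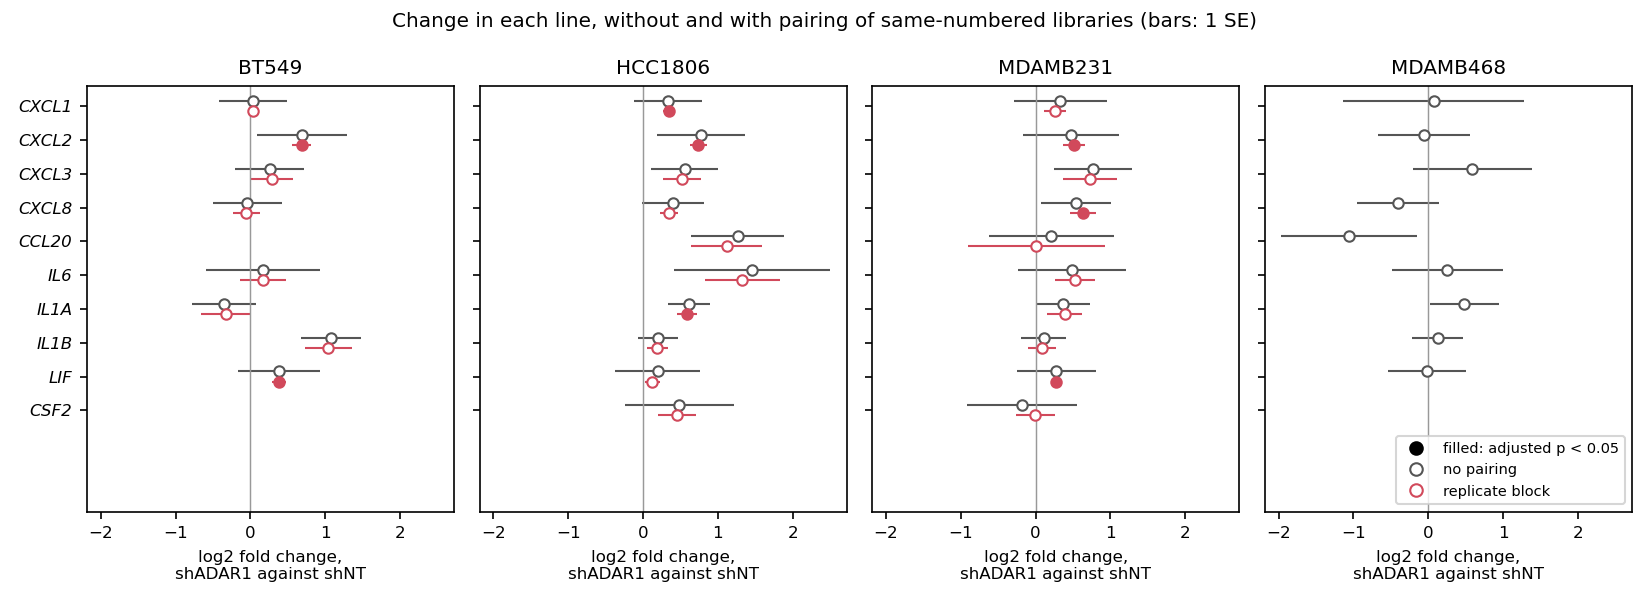
Log2 fold change of shADAR1 against shNT (horizontal axis, bars are 1 SE) for the 10 genes in each line, without pairing (grey) and with a term for each replicate number (red, not drawn for MDAMB468); filled points have an adjusted p under 0.05, and CSF2 in BT549 and MDAMB468 and CCL20 in BT549 have no fold. The red bars are shorter than the grey ones except for CCL20 in MDAMB231, and CXCL2 is the gene with filled points in 3 lines.

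CXCL2 passed within numbers in 3 lines, more than any other member. In BT549 it went from 3.51, 3.79 and 3.75 CPM in shNT to 5.72, 6.76 and 5.25 in shADAR1, with no overlap of the arms. The SE that follow rest on a spread estimated over all 4 lines and are not the spread of BT549 alone. The log2 fold change was 0.68 ± 0.60 without pairing (edgeR adjusted p = 1) and 0.68 ± 0.13 within numbers (0.0022). In HCC1806 it went from 16.5, 10.7 and 9.31 to 30.4, 17.3 and 14.6 CPM, higher in each number although the arms overlap, with 0.74 ± 0.12 within numbers (edgeR adjusted p = 0.0015). In MDAMB231 it went from 10.5, 1.402 and 3.23 to 11.5, 2.31 and 5.34 CPM, with 0.51 ± 0.15 within numbers (0.024). In MDAMB468 the values were 9.05, 2.24 and 3.09 in shNT and 8.66, 2.08 and 3.14 in shADAR1, and the log2 fold change of -0.06 ± 0.62 without pairing did not pass. The joint test that follows uses the value within numbers for that line, -0.046 ± 0.14, although MDAMB468 was not read as paired. Within numbers the 4 line effects of CXCL2 differed by the joint test (edgeR adjusted p = 0.042, DESeq2 0.013), the 1 member for which they did, where 4.69% of all genes passed. That call was kept in 4 of the 12 refits that each left out 1 same-numbered pair, those without BT549 replicate 3, MDAMB231 replicate 1, MDAMB231 replicate 3 and MDAMB468 replicate 2. In the mean of the lines the call on CXCL2 held in all 12, with log2 fold changes from 0.44 to 0.53.

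CXCL1 and CXCL8 each rose within numbers in 1 line. CXCL1 in HCC1806 had a log2 rise of 0.34 ± 0.07 within numbers (edgeR adjusted p = 0.012), with log2 ratios of 0.41, 0.25 and 0.37 in replicates 1, 2 and 3. In BT549, the other line with much CXCL1, it had 32.1, 39.2 and 33.8 CPM in shNT and 34.3, 39.7 and 33.3 in shADAR1, a log2 fold change of 0.03 ± 0.07 within numbers. CXCL8 went from 11.3, 1.91 and 6.92 to 12.3, 4.71 and 10.2 CPM in MDAMB231, higher in each number, by 0.63 ± 0.17 within numbers (edgeR adjusted p = 0.019). In HCC1806, where CXCL8 is most abundant, it went from 72.5, 69.5 and 40.4 to 114, 81.8 and 45.0 CPM, also higher in each number, but the change of 0.35 ± 0.13 did not pass (adjusted p = 0.2). CXCL3 had log2 fold changes within numbers of 0.28 in BT549, 0.52 in HCC1806 and 0.73 in MDAMB231 and passed in none of them.

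CCL20 in HCC1806 had the counts 26, 82 and 43 in shNT and 202, 147 and 112 in shADAR1, or 1.14, 1.71 and 0.830 against 4.65, 2.98 and 1.27 CPM. The ratio was largest in replicate 1, the arms overlap, and the change of 1.12 ± 0.47 within numbers did not pass (edgeR adjusted p = 0.29). In MDAMB231 and MDAMB468 no library held more than 21 counts of CCL20.

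Among the IL-1 genes, IL1A in HCC1806 went from 82.2, 78.9 and 49.7 CPM to 146, 108 and 68.9, higher in each number, by 0.58 ± 0.13 within numbers (edgeR adjusted p = 0.021). It did not pass by DESeq2 with the same block. IL1B in HCC1806 went from 27.4, 17.7 and 24.3 to 32.1, 20.1 and 27.2 CPM, a smaller difference that did not pass (0.19 ± 0.14, adjusted p = 0.64). In BT549 IL1B went from 0.160, 0.277 and 0.349 CPM (9, 18 and 15 counts) to 0.421, 0.485 and 0.736 (24, 44 and 45 counts), with no overlap of the arms. Its log2 fold change of 1.04 ± 0.32 within numbers did not pass by edgeR (adjusted p = 0.061) and did by DESeq2 (0.013). IL1A in the same libraries had 0.532, 0.570 and 1.16 CPM in shNT and 0.860, 0.452 and 0.442 in shADAR1, with no common direction.

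LIF rose within numbers in BT549, from 6.65, 7.41 and 13.9 to 9.89, 8.98 and 17.4 CPM (0.38 ± 0.09, edgeR adjusted p = 0.015), and in MDAMB231, from 107, 82.9 and 102 to 123, 100.5 and 130.02 CPM (0.28 ± 0.08, 0.025). The ratios were of like size in the numbers, 0.54, 0.26 and 0.31 in BT549 and 0.21, 0.28 and 0.34 in MDAMB231 on the log2 scale. In HCC1806 the change was 0.12 ± 0.10 within numbers and in MDAMB468 -0.02 ± 0.52 without pairing, and neither passed. IL6 had 0.176, 0.166 and 0.116 CPM (4, 8 and 6 counts) in shNT of HCC1806 and 0.667, 0.446 and 0.181 (29, 22 and 16 counts) in shADAR1. The arms did not overlap, at a level near the limit of detection, and the change of 1.33 ± 0.50 within numbers did not pass (edgeR adjusted p = 0.22). In the mean of the lines IL6 rose by 0.66 ± 0.18 within numbers (edgeR adjusted p = 0.015, a call lost without number 1 of HCC1806), IL1B by 0.37 ± 0.12 (0.038, kept in 3 of the 12 refits) and LIF by 0.21 ± 0.04 (0.0022, kept in all 12). The mean weights the lines equally. In BT549, HCC1806, MDAMB231 and MDAMB468 the values within numbers were 0.17, 1.33, 0.52 and 0.63 for IL6. For IL1B they were 1.04, 0.19, 0.08 and 0.17. The largest value of each gene came from the line with its lowest shNT level. IL6 was higher in each number in HCC1806, MDAMB231 and MDAMB468. CSF2 in HCC1806 went from 2.73, 3.56 and 1.22 to 3.73, 5.27 and 1.53 CPM, higher in each number without passing (0.46 ± 0.25, adjusted p = 0.49), and in MDAMB231 its change was -0.0037 ± 0.26.

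Which calls passed within a line changed when single pairs of libraries were left out. In BT549 both calls were lost without number 2, and LIF without number 1. In HCC1806 all 3 calls were lost without number 1, IL1A without number 2, and CXCL1 and IL1A without number 3. In MDAMB231 all 3 were lost without number 2, and LIF without number 1. Without number 3 of that line CXCL2, CXCL8 and LIF were lost and CXCL3 passed instead, at a log2 fold change of 1.80 (edgeR adjusted p = 0.0023). Over the 3 refits of a line the log2 fold changes of called genes kept their sign. CXCL2 ran from 0.60 to 0.76 in BT549, 0.67 to 0.81 in HCC1806 and 0.38 to 0.72 in MDAMB231, CXCL1 from 0.31 to 0.39 and IL1A from 0.46 to 0.66 in HCC1806. LIF ran from 0.30 to 0.44 in BT549 and 0.24 to 0.31 in MDAMB231, and CXCL8 from 0.38 to 0.83 in MDAMB231. These refits have fewer libraries, and calls over all genes fell in them too, from 1098 to between 369 and 1036 in BT549, from 448 to between 74 and 238 in HCC1806 and from 2434 to between 1331 and 2327 in MDAMB231.

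The receptors and regulators of these cytokines were read from lists drawn up with earlier results of these data known. Of 13 receptor genes 9 passed the filter on low counts. CXCR1, CXCR2, CCR6 and ACKR1 did not, and CXCR2 averaged at most 0.152 CPM in any group. The signalling partners were present in every line: IL6ST averaged 106 to 317 CPM and LIFR 7.07 to 104 over the 8 groups. IL1RAP, the accessory chain of the IL-1 receptor, was the receptor gene that rose without pairing, by 0.44 ± 0.11 in the mean of the lines (edgeR adjusted p = 0.035), 1 of 9 tested where 2.96% of all genes passed. It was higher in shADAR1 in each number of all 4 lines, for example at 48.9, 54.5 and 72.0 CPM in shNT and 73.7, 82.5 and 93.6 in shADAR1 of BT549. IL6R fell within numbers, with a log2 fold change of -0.46 in the mean of the lines (edgeR adjusted p = 0.0011), and without pairing had an adjusted p of 0.22. In single lines IL6R fell within numbers in BT549 (-0.54) and MDAMB231 (-0.94), IL1R1 fell in MDAMB231 (-0.28, adjusted p = 0.04) and IL1RAP rose in both BT549 (0.52) and MDAMB231 (0.51). Of all genes 2.48% rose and 2.66% fell in BT549, and 5.08% rose and 6.32% fell in MDAMB231. IL1RN, the natural antagonist of the IL-1 receptor, passed within numbers in the mean (edgeR adjusted p = 0.015) and not without pairing (0.1), but averaged 0.0059 CPM in shNT of BT549, and its fold is not read. Without pairing and without passing, IL1R2, a decoy receptor, had 0.81 ± 0.59 and IL6R -0.46 ± 0.31 in HCC1806, and IL1R1 had 0.26 ± 0.21 in MDAMB468.

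Of 23 other cytokine and chemokine genes 20 were tested, and none passed without pairing by edgeR (2 had an unadjusted p under 0.05 in BT549, 4 in HCC1806, 2 in MDAMB231, none in MDAMB468 and 3 in the mean). Over all 21352 genes tested such a p was found for 1370, 929, 2501, 803 and 2741, in the same order. CXCL5, a further CXCR2 ligand, was at most 1.06 CPM in any library outside BT549. In BT549 it fell within numbers: 122, 137 and 126 CPM in shNT and 55.3, 65.9 and 69.6 in shADAR1, with no overlap. Its log2 fold change was -1.02 ± 0.08 within numbers (edgeR adjusted p = 5e-07) and -1.01 ± 0.26 without pairing (0.12). In the same libraries CXCL2 was higher in each number. TNF, a cytokine known to induce many of the members, had 0.352, 1.29 and 0.463 CPM in shNT of HCC1806 and 5.01, 3.25 and 2.52 in shADAR1, with no overlap and a log2 fold change of 2.37 ± 0.49 within numbers (edgeR adjusted p = 0.013; 0.35 without pairing). In the other lines TNF averaged at most 0.334 CPM. Within numbers 4 of the 20 rose in HCC1806, TNF, IL11, CSF1 and VEGFA, where 1.47% of all genes rose. CSF1 (0.32) and VEGFA (0.21) also rose in BT549, 2 of 20 where 2.48% of all genes rose. Whether TNF had a part in any of these changes was not tested. In MDAMB231 IL24 rose and TGFA fell (log2 fold changes 1.54 and -0.87), and 5.08% of all genes rose and 6.32% fell. CSF1 (0.25), VEGFA (0.20) and IL24 (1.02) rose within numbers in the mean, where 7.25% of all genes did. CSF3 in BT549 and TNF and CXCL11 in MDAMB468 averaged under 0.5 CPM in both arms, did not pass, and their folds are not read.

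NF-kB subunits, inhibitors and target genes were counted line by line. Of 21 listed, 20 were measured and tested. In HCC1806 19 of the 20 had a fitted change above 0, with a median of 0.22 without pairing (all genes 0.00), and 8 rose within numbers: TRAF1, BIRC3, NFKBIE, ICAM1, BCL3, TNFAIP3, BIRC2 and NFKB2, where 1.47% of all genes rose. None of the 20 passed there without pairing by edgeR, and 6 had an unadjusted p under 0.05, beside 929 of all 21352 genes. TRAF1, an adaptor of the TNF receptors, had 2.24, 4.202 and 1.06 CPM in shNT and 10.6, 9.96 and 3.51 in shADAR1 (1.64 ± 0.14 within numbers, edgeR adjusted p = 8.7e-07; 0.11 without pairing). BIRC3, an inhibitor of apoptosis in the same pathway, had 18.8, 18.5 and 9.21 CPM in shNT and 55.2, 32.7 and 23.2 in shADAR1 (1.22 ± 0.16, adjusted p = 0.00016; 0.19 without pairing). In MDAMB231 2 of the 20 rose within numbers, TNFAIP3 and CHUK, where 5.08% of all genes rose, and BCL3 fell, where 6.32% did. In BT549 NFKBIZ fell, where 2.66% of all genes did, and none rose. In MDAMB468 none passed by edgeR without pairing, and none had an unadjusted p under 0.05, beside 803 of all 21352 genes. In the mean 7 rose within numbers, TNFAIP3, TRAF1, BIRC3, BIRC2, ICAM1, NFKBIE and CHUK, where 7.25% of all genes rose, and none passed without pairing by edgeR (5 had an unadjusted p under 0.05). Such a p was found in the mean for 2741 of all 21352 genes. Among genes that did not pass, the log2 fold changes without pairing were 0.20 for BIRC2 and 0.37 for BIRC3 in BT549, -0.30 for REL in MDAMB231, and 0.13 for CHUK and -0.23 for RELB in MDAMB468. Whether the lists differ between lines was not tested.

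**Figure D4:**
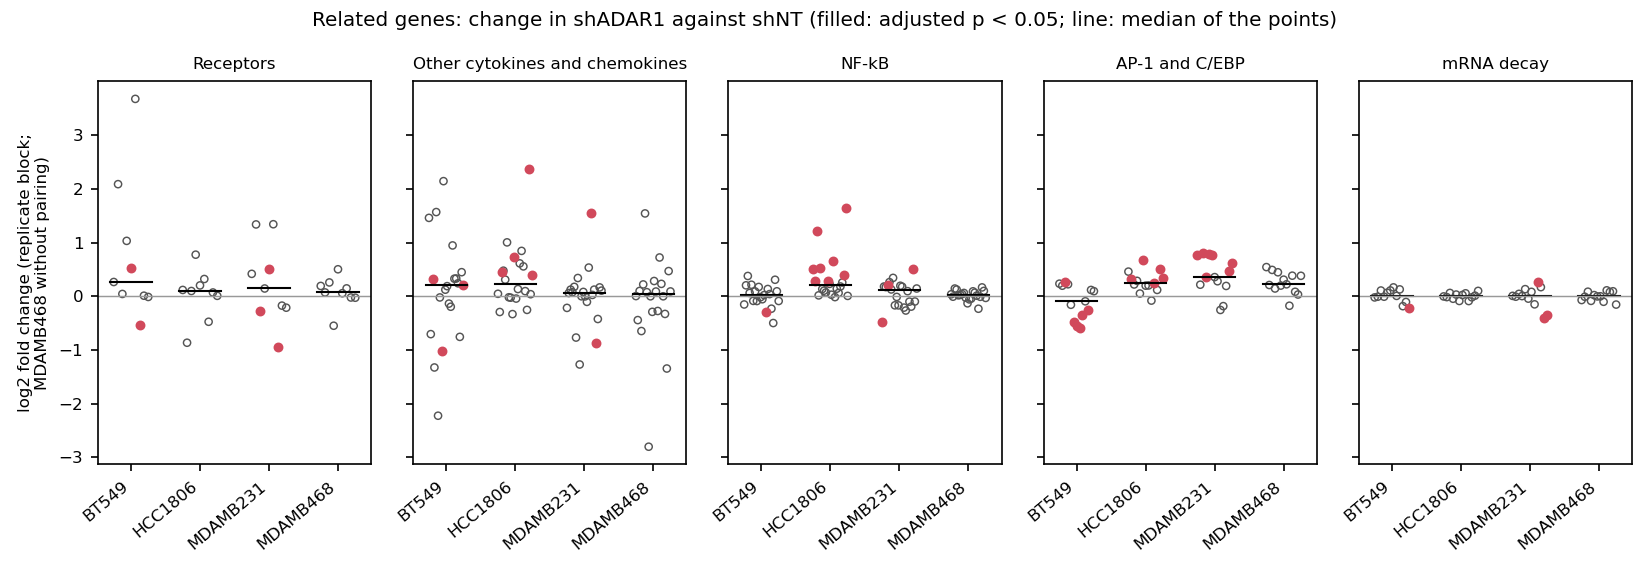
Log2 fold change of shADAR1 against shNT with a term for each replicate number, or for MDAMB468 without pairing (vertical axis), for 5 lists of related genes (panels) in the 4 lines (horizontal axis); each point is a gene, red points have an adjusted p under 0.05 and the black line is the list's median. In the NF-kB panel 8 points of HCC1806 are red and lie above 0; points far from 0 in the first 2 panels include genes with almost no counts, such as IL1RN in BT549 and CXCL5 in MDAMB468, whose fitted folds are not read as values.

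Genes of AP-1, C/EBP and the immediate-early response were all tested (13 of 13). Without pairing 4 rose in the mean of the lines: CEBPD (0.45 ± 0.07, edgeR adjusted p = 0.00035), CEBPB (0.23), CEBPG (0.26) and JUND (0.37), where 2.96% of all genes passed. CEBPD, a transcription factor of acute-phase and cytokine genes, had 4.89, 4.70 and 5.48 CPM in shNT of MDAMB231 and 9.34, 8.09 and 9.30 in shADAR1, a rise of 0.82 ± 0.15 that passed without pairing (edgeR adjusted p = 0.0032), where 2.01% of all genes passed. No other gene of the list passed without pairing in a single line. An unadjusted p under 0.05 was found for 4 of the 13 in MDAMB231, 4 in MDAMB468, 3 in HCC1806 and 0 in BT549. Over all 21352 genes it was found for 2501, 803, 929 and 1370, in the same order. Within numbers 5 of the 13 rose in HCC1806, CEBPB, EGR1, FOSL2, JUNB and JUND, where 1.47% of all genes rose. In MDAMB231 7 rose, ATF3, CEBPD, CEBPG, DUSP1, EGR1, JUNB and JUND, where 5.08% did, and none fell in these lines, where 0.632% and 6.32% of all genes did. For MDAMB468, not read as paired, the same fit had 5 of the 13 higher and 0 lower, beside 215 and 139 of 21352 genes. Of the other lists, that fit had IL1RAP higher (0.50) among 9 receptor genes and TGFA lower (-0.33) among 20 other cytokines and chemokines. It called 0 of 20 NF-kB genes and 0 of 12 genes of messenger decay. In BT549 CEBPD rose (0.26) and 5 fell within numbers, FOS, FOSB, FOSL1, EGR1 and JUN, with log2 fold changes from -0.25 to -0.59, where 2.48% of all genes rose and 2.66% fell. In the mean 8 rose and FOSL1 fell within numbers, where 7.25% of all genes rose and 5.96% fell. Those that rose were CEBPB, CEBPD, CEBPG, JUNB, JUND, ATF3, DUSP1 and EGR1. Without pairing and without passing, CEBPB had 0.19 and CEBPG 0.22 in BT549, CEBPB 0.31 and CEBPG 0.29 in HCC1806, JUND 0.64 in MDAMB231, and CEBPD 0.49 and FOSL2 0.38 in MDAMB468. The 12 genes of messenger decay had median changes of at most 0.01 in size in every line and none passed without pairing by edgeR (1 had an unadjusted p under 0.05 in BT549, 2 in MDAMB231, 1 in the mean and none in HCC1806 and MDAMB468). Over all 21352 genes these counts were 1370, 2501, 2741, 929 and 803, in the same order. Within numbers ZFP36L1 (-0.41) and ZFP36L2 (-0.35), which promote decay of such messengers, fell in MDAMB231, ZFP36L2 (-0.21) also fell in BT549, and ZC3H12A (0.26), which cleaves such messengers, rose in MDAMB231. These are 3 of 12 in MDAMB231, where 11.4% of all genes changed, and 1 of 12 in BT549 (5.14%). In the mean ZFP36L1 (-0.10) and ZFP36L2 (-0.15) fell within numbers, where 5.96% of all genes fell. Without pairing and without passing, RC3H2 had 0.17 in BT549 and 0.07 in the mean, HNRNPD 0.08 in the mean, RC3H1 -0.09 and ZFP36L2 0.10 in HCC1806, and ZFP36L2 -0.15 and KHSRP -0.09 in MDAMB468.

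Over the 24 libraries, with each line's mean taken out, 42 of the 45 pairs of members had a positive correlation of log2 CPM, with a median Pearson r of 0.34. CXCL8 with CSF2 (0.87), IL6 with LIF (0.86) and CXCL2 with IL6 (0.79) were the closest pairs, and CXCL1 with LIF (-0.33) was the farthest apart. The genes most like the average of the members were IRF1 (r = 0.87), BCAP29 (0.86), INHBA (0.86), JUNB (0.86) and MCL1 (0.86). These are descriptions without a test, since the libraries share lines, arms and replicate numbers.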

How the data were processed

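Whole-number read counts per gene, deposited by the authors, were the values tested; per the file headers the deposited tables also hold CPM and RPKM, which equalled the counts divided by the library total and by the listed gene length. STAR, featureCounts and edgeR are named in the submitters' processing notes. Strand use, build and annotation are not given in the sources used here. Symbols came from a name table. Genes were filtered with filterByExpr (21352 of 37416 kept, all 10 members among them) and scaled by TMM (factors 0.924 to 1.12). Printed CPM are TMM-scaled, and RPKM divides them by the deposited length. Tests were 2-sided quasi-likelihood F tests in edgeR 4.0.16 (R 4.3.3), with 1 coefficient per group over all 24 libraries, Benjamini-Hochberg adjustment over all genes tested and a threshold of 0.05. SE were derived from the fold change and F. The fit without pairing was tested on simulated counts that held no replicate effect, and the fit with a term for each replicate number was not. No 2 libraries of a group matched within sampling noise, with a chi-square of at least 11.8 times its degrees of freedom. Ratios within a replicate number used CPM plus 0.5, and floors used 3 counts over a group. Intervals and floors cover counting error only.

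Whether a replicate number pairs an shNT with an shADAR1 library was judged from the correlation, over genes, of their deviations from the group mean. It was 0.139 to 0.25 for the 3 numbers of BT549, 0.242 to 0.443 for those of HCC1806 and 0.149 to 0.348 for those of MDAMB231. A line was read as paired where every correlation was over 0.1, from the data and not from the labels. MDAMB468 had 0.165, 0.166 and 0.0651 for numbers 1, 2 and 3 and was not. The cut was not tested and separates the lines narrowly. Numbers 1 and 2 of MDAMB468 were above those of BT549 (0.139 and 0.158). Number 1 of HCC1806 and MDAMB468 shNT, different lines, reached 0.103. Values called within numbers come from a fit with a term for each replicate number of each line, all 4 lines included.

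Alternatives covered DESeq2 1.42.0, scaling by RLE or upper quartile, other count filters, the replicate block, the libraries of 1 line or of shNT alone, and leaving out each library. DESeq2 with the block and the block without each same-numbered pair were added after the data had been seen. The members, the lists and the naming rule (in each list the 3 genes with the smallest p in the mean of the lines and 2 in each line) were chosen with earlier results of these data known; genes that passed within numbers in BT549, HCC1806, MDAMB231 or the mean were named besides, after their values were seen.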

Additional observations from a re-analysis of the deposited data

How the results depend on the processing

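Without pairing, the count of members called stayed at 0 in each line, in the mean of the lines and in the joint test under other scalings, DESeq2, other count filters and each left-out library. With the replicate block the counts were 2 in BT549, 3 in HCC1806, 3 in MDAMB231, 0 in MDAMB468 (IL6 and CSF2 had an unadjusted p under 0.05), 4 in the mean and 1 in the joint test. In MDAMB468 2349 of all 21352 genes had such a p with the block. DESeq2 with the block gave 3, 2, 3, 0, 5 and 1, beside 1465, 726, 2899, 608, 3247 and 1887 of 21352 genes. The blocked fit without numbers 1, 2 and 3 in turn gave 1, 0 and 2 in BT549, 0, 2 and 1 in HCC1806 and 2, 0 and 1 in MDAMB231. Over the 12 left-out pairs it gave 2, 3, 4 or 5 in the mean and 0 or 1 in the joint test. With at least 10 counts required in every library only CXCL2, CXCL8 and LIF were tested, among 11794 genes. Of these members 2 differed between HCC1806 and BT549 (8739 of all genes), 1 between MDAMB231 and BT549 (8172) and 1 between MDAMB468 and BT549 (8537). Further counts were 2 between MDAMB231 and HCC1806 (8309), 2 between MDAMB468 and HCC1806 (8781) and 1 between MDAMB468 and MDAMB231 (8615).

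Directions that turned were those of small or widely spread changes, and the cause was not tested. Leaving out 1 library moved the log2 fold change in BT549 from -0.050 to 0.12 for CXCL1, -0.25 to 0.14 for CXCL8, -0.0088 to 0.37 for IL6 and -0.70 to 0.050 for IL1A. In HCC1806 it ran from -0.030 to 0.71 for CXCL1 and -0.28 to 0.52 for LIF. In MDAMB231 it ran from -0.25 to 0.83 for CXCL1, -0.24 to 1.42 for CXCL2, -1.38 to 0.79 for CCL20, -0.11 to 0.34 for IL1B and -0.72 to 0.81 for CSF2. In MDAMB468 it ran from -0.27 to 0.54 for CXCL1, -0.84 to 0.75 for CXCL2, -0.76 to 0.14 for CXCL8, -0.95 to 2.08 for IL6, -0.21 to 0.37 for IL1B and -0.93 to 0.94 for LIF. In the mean it ran from -0.0034 to 0.26 for CXCL8 and -0.019 to 0.45 for LIF. Between lines LIF ran from -0.47 to 0.23 for HCC1806 against BT549 and -0.74 to 0.65 for MDAMB468 against MDAMB231. CXCL2 ran from -0.67 to 0.79 for MDAMB231 against BT549, -0.47 to 0.69 for MDAMB468 against BT549 and -0.77 to 1.00 for MDAMB468 against MDAMB231. IL6 ran from -0.53 to 1.88 for MDAMB468 against BT549, and CCL20 from -0.76 to 0.18 for MDAMB468 against MDAMB231.

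With the replicate block LIF in MDAMB468 was 0.049 (0.045 by DESeq2, 0.092 without number 1 and 0.14 without number 3). Between lines the block was a different one, with a term for each replicate number shared by all lines. With that shared block LIF between MDAMB468 and MDAMB231 was -0.020. By DESeq2 CXCL2 between those lines was -0.069. In the block without 1 pair, CXCL8 was 0.030, IL6 -0.023 and IL1A 0.17 in BT549, and CCL20 was -1.39 and CSF2 0.33 in MDAMB231. In MDAMB468 without number 3, CXCL1 was -0.27, CXCL8 0.15, IL1A -0.022 and IL1B -0.47. Same-numbered shNT libraries of different lines deviated together little if at all (correlations -0.0331 to 0.103), and no pair of lines was over 0.1 in every number. The shared block, which assumes that they do, moved CXCL2 past the threshold for MDAMB231 against HCC1806 (-1.61) and MDAMB468 against HCC1806 (-1.55). These 2 calls are therefore not read as results. CSF2 and CCL20 had too few counts in BT549, and CSF2 in MDAMB468, for a fold to be read at this depth.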
